A study of Mus musculus with 10 samples.

Results

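Potassium channel genes are described here in the trigeminal ganglia of mouse embryos with and without Prdm12. The members are all protein-coding genes whose symbol begins with Kcn and that had at least 10 counts in 5 or more of the 10 libraries, which held for 79 of 94 protein-coding Kcn genes among the 55414 gene IDs measured. The symbols cover pore-forming subunits, auxiliary subunits and 1 gene named as a regulator. The trigeminal ganglion holds the cell bodies of the neurons that sense touch, temperature and pain in the face, and Prdm12 encodes a zinc finger protein needed for the development of pain-sensing neurons (nociceptors). The knockout group consisted of 5 libraries labelled Prdm12-/- (16, 29, 42, 49 and 50) and the wild-type group of 5 libraries labelled Prdm12+/+ (22, 24, 32, 35 and 45). All 10 came from C57Bl6 embryos at E13.5 (embryonic day), and the genotype label of both groups also carries Sox10 Venus+. The labels give the study's aim as the effect of a constitutive loss of Prdm12. They name no cell sorting and no number of embryos per library, so the p-values reflect the spread of these samples, some of which may be technical. Knockout titles begin with F and wild-type titles with K. The wild-type titles also carry Venus_plus, which the knockout titles lack. Whatever these differences in the titles mark cannot be told apart from genotype.

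Potassium channels let potassium leave the cell and so set the resting potential, end the action potential and limit repetitive firing. Voltage-gated subunits of the Kv families assemble as tetramers, often of mixed composition, with auxiliary subunits that shift gating or trafficking. Calcium-activated and sodium-activated channels follow the ions that enter during firing, two-pore-domain channels carry background current, and inward rectifiers pass current mainly near and below the resting potential. In sensory neurons, the mixture of these subunits is one of the properties that distinguish nociceptors from touch and position neurons.

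Library totals ran from 3258008 counts (knockout 49) and 13603690 (knockout 29) to 33556002 (knockout 16). A floor of 3 counts was 0.869 CPM (counts scaled to library size, with TMM factors) for knockout 49, 0.236 CPM for knockout 29 and 0.0889 to 0.107 CPM elsewhere. Prdm12 itself was at 8.74 to 42.7 CPM among knockouts, highest in knockout 29, and at 74.3 to 264 CPM among wild types. The summed level of 15 general neuronal markers overlapped between the groups, at 7859 to 18021 CPM among knockouts and 10360.2 to 19335 CPM among wild types. Of these 15 genes, 14 had a fold change of knockout over wild type below 0 (93.3%, against 53.7% of all genes tested). At an unadjusted p under 0.05, 5 were lower and 0 higher (33.3%, against 13.1% of all genes), and none was called. The sum of 12 nociceptor markers did not overlap, at 735 to 1048 and 1483 to 3958 CPM. Wild-type libraries 32 and 35 stood apart from the rest, with the 2 highest nociceptor and general neuronal sums and the 2 lowest mesenchyme sums (1020.3 and 1332 CPM, against 3307 to 11689.5 CPM in the other 8). In a bulk sample, fewer cells of a type and less RNA per cell cannot be told apart.

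Of 78 members that could be tested, 3 were lower among knockouts at an adjusted p under 0.05, of which Kcnh6 and Kcne1l are described here. None was higher. Over all 18005 genes tested, 0.372% were called lower and 0.0944% higher, 0.467% in all. At an unadjusted p under 0.05, 14 members were lower and 11 higher, 32.1% of those tested; of all genes, 6.73% were lower and 6.4% higher, 13.1% together. DESeq2 called 7 members lower and 4 higher where it called 3.69% of all genes. With limma-voom, 3 members were called lower and 1 higher, and 0.539% of all genes were called. Kcnh6 was the only member called when knockout 42, 49 or 50 or wild-type 22, 32 or 35 was left out. These fits called 0.158 to 0.285% of all genes. No member was called without wild-type 32 and 35 together, where 0.102% of all genes were called. The groups did not overlap for 7 lower and 4 higher members, 14.1% of those tested; of all genes, 2.92% were lower and 1.29% higher without overlap, 4.21% together. The fold was at least 2 for 16 members and for 5.74% of all genes. The median log2 fold change of knockout over wild type was -0.10 among the members and -0.03 among all genes, while the median size of the change without regard to sign was 0.58 and 0.24. Kcnk7 did not pass the filter for testing, at 0.290 CPM among knockouts and 0.274 CPM among wild types. Every member reached 10 counts in at least 1 library of each group, but 25 members had under 10 counts in knockout 49.

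**Figure D1:**
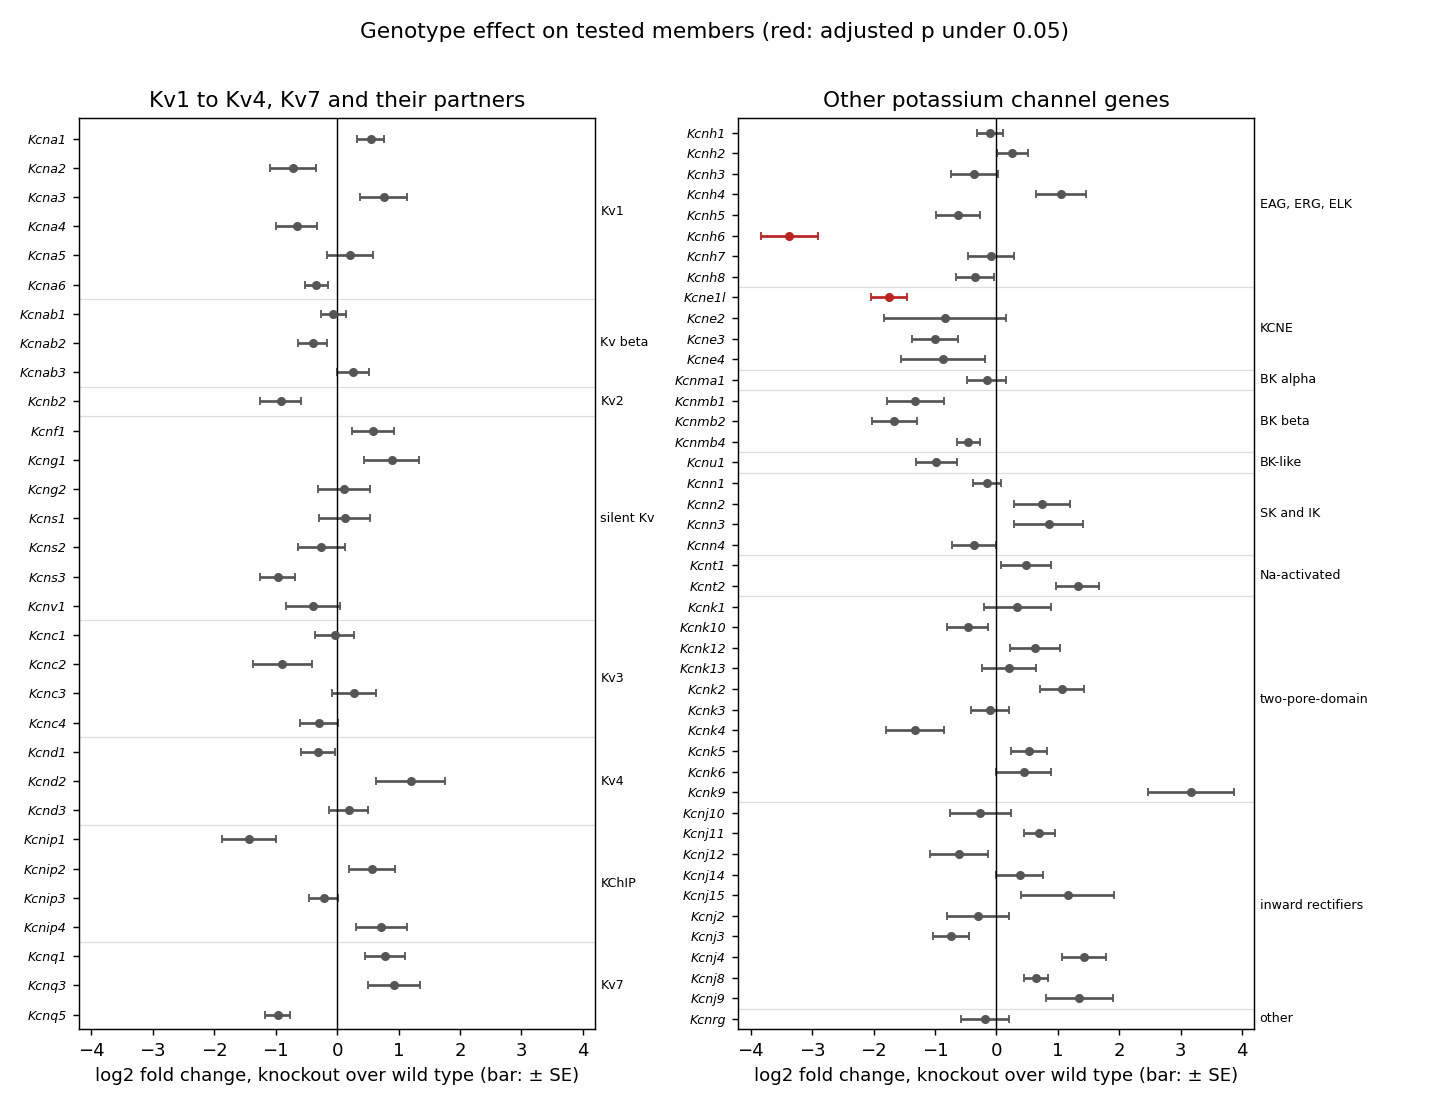
Log2 fold change of knockout over wild type with its SE (x axis) for 75 tested potassium channel genes (y axis), ordered by subfamily. The 2 called genes drawn, Kcnh6 and Kcne1l, lie left of 0, and the rightmost point, Kcnk9 at 3.17, is not called.

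Kcnh6 encodes a subunit of the ERG (ether-a-go-go-related) channels, Kv channels that open again as an action potential ends and so delay the next. It stood at 6.16, 16.1, 4.30, 8.40 and 7.02 CPM in knockout 16, 29, 42, 49 and 50, and at 66.2, 29.4, 143, 123 and 65.9 CPM in wild-type 22, 24, 32, 35 and 45. Every knockout library was below every wild-type library. Its mean fell from 85.4 ± 46.3 CPM to 8.39 ± 4.53 CPM (SD, n = 5 each), for which the log2 fold change was -3.37 (SE 0.47, adjusted p = 0.00945). The highest knockout value came from knockout 29, the library with the most remaining Prdm12. In the wild type, Kcnh6 was highest in libraries 32 and 35 and lowest in 24, as was the nociceptor sum (3958, 3643 and 1483 CPM); the part of nociceptor content in the result was not tested. Kcnh6 was called in 19 of 20 alternative analyses, also with the general neuronal score as a covariate (log2 fold change -2.84, adjusted p = 0.0136). Without wild-type 32 and 35 the log2 fold change was -2.64 and the call was lost (adjusted p = 0.0673).

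The other ERG subunits were not called. Kcnh2, which encodes the ERG1 subunit, was at 33.3 to 81.6 CPM among knockouts and 33.9 to 56.1 CPM among wild types, and Kcnh7, which encodes ERG3, at 8.26 to 24.5 and 7.19 to 28.4 CPM. The groups overlapped for both (adjusted p = 0.664 and 0.933). Within a library, a share among related subunits needs no scaling between libraries. Of the counts of the 3 ERG genes, Kcnh6 took 7.11, 15.2, 7.25, 15.3 and 8.71% among knockouts and 59.2, 41.1, 63.0, 60.9 and 52.4% among wild types. Kcnh2 took 66.3 ± 6.29% among knockouts and 32.5 ± 9.49% among wild types (SD, n = 5 each), again with no overlap. The shares of the 3 genes add up to the whole, so a lower Kcnh6 by itself gives Kcnh2 a higher share. These are shares of counts, to which longer transcripts contribute more. Divided by the exon length of the gene (GENCODE M21), the mean level of Kcnh6 was 24.1 CPM per kb among wild types, the second of the 79 members, and 2.36 CPM per kb among knockouts.

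The other genes of the same subfamily are the EAG subunits Kcnh1 and Kcnh5 and the ELK subunits Kcnh3, Kcnh4 and Kcnh8. None was called. Kcnh1 was at 56.9 ± 9.39 CPM among knockouts and 61.0 ± 19.2 CPM among wild types. Kcnh4 had a fold change of the other sign, at 14.7 ± 8.70 and 7.14 ± 2.18 CPM (log2 fold change 1.05, SE 0.40, adjusted p = 0.310). Its knockout values split between libraries 16 and 29, at 23.2 and 24.9 CPM, and the others, at 5.62 to 10.4 CPM, which overlapped with the wild type.

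Kcne1l, also known as Kcne5, is an X-linked gene for a single-pass membrane protein of the KCNE family, whose members attach to Kv channels and change their gating. It was at 14.1, 19.1, 10, 4.92 and 8.21 CPM in knockout 16, 29, 42, 49 and 50, and at 36.9, 42, 44, 41.5 and 28.0 CPM in wild-type 22, 24, 32, 35 and 45. The groups did not overlap, and the wild-type values were close together. The mean fell from 38.5 ± 6.41 to 11.3 ± 5.50 CPM (SD, n = 5 each; log2 fold change -1.75, SE 0.30, adjusted p = 0.0301). Per kb of exon it had the highest mean of all members among wild types, 24.9 CPM per kb, and 7.31 CPM per kb among knockouts. The call was made in 12 of 20 alternatives, among them the fit with sex, inferred from Xist, as a covariate (log2 fold change -1.67, adjusted p = 0.0363). It was lost when knockout 42, 49 or 50 or wild-type 22, 24, 32 or 35 was left out (adjusted p 0.0507 to 0.112), and without wild-type 32 and 35 together (adjusted p = 0.247), with log2 fold changes from -1.58 to -1.76.

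The remaining KCNE members were low and were not called. Kcne3 was at 0.839 to 2.61 CPM among knockouts and 1.70 to 3.97 CPM among wild types. Kcne4 was at 2.02 ± 1.22 and 3.87 ± 3.53 CPM. Kcne2 was at 5.34 CPM in wild-type 24 and at no more than 0.367 CPM elsewhere among wild types, against 0.236 to 1.82 CPM among knockouts. All 4 KCNE fold changes were below 0, from -1.75 to -0.84 on the log2 scale, as were 53.7% of those of all genes tested.

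The letters before the start of the 2 members with the largest called changes are shown because both genes were called lower among knockouts. They come from RefSeq, build GRCm38.p6, and are given on the gene's strand. The submitters' notes name GRCm39 as well as mm10, so these coordinates need not be those of the counts. Kcnh6 lies on chr11:106007898-106008043 (plus strand, 146 bases up to the annotated gene start) and Kcne1l on chrX:142306199-142306448 (minus strand, 250 bases). Both stretches lie upstream of the annotated start.
Kcnh6: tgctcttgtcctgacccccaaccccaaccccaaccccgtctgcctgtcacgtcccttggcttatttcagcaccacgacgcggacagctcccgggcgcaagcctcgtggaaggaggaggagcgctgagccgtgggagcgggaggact
Kcne1l: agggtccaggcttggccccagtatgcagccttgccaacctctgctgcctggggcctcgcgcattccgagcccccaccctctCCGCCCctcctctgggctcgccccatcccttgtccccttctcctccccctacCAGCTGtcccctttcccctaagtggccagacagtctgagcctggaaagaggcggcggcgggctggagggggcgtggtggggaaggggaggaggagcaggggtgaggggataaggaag
Capitals mark matches to 4 motifs searched on both strands, which were the RUNX letters TGTGGT, the homeodomain letters TAATTA, the E-box CAGCTG and the GC box GGGCGG. Kcne1l holds 1 E-box and 1 GC box, and none of the 4 motifs is in the Kcnh6 letters. The share of G and C was 65.8% for Kcnh6 and 68.0% for Kcne1l. The median over promoter windows of 250 bases was 58.8% for the members and 52.4% for all 32851. Among the 77 windows of the 56 members in the table, 23.4% held the E-box, 48.1% the GC box, 9.09% the RUNX letters and 0 the homeodomain letters. Over all windows the shares were 13.0%, 32.7%, 14.0% and 4.84%. These matches are a description of letters and not of binding.

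Kcnb2, which encodes a delayed rectifier of the Kv2 family, was at 15.1 to 32.3 CPM among knockouts and 20.9 to 71.6 CPM among wild types, and the ranges overlapped (log2 fold change -0.92, SE 0.34, adjusted p = 0.287). Electrically silent Kv subunits form no channel alone and join Kv2 subunits. Of 7 members of this kind, Kcns3 (Kv9.3) was lower in every knockout library, at 0.865 to 2.10 CPM against 2.43 to 3.74 CPM (log2 fold change -0.97, adjusted p = 0.197, SE 0.29). Kcng1 was above every wild-type library, but with 0.579 to 0.839 CPM, and the knockout 49 value is below that library's floor. Kcns1 was at 3.26 ± 1.03 and 2.98 ± 1.77 CPM, Kcnf1 at 5.41 ± 2.15 and 3.68 ± 1.33 CPM and Kcnv1 at 0.903 ± 0.644 and 1.26 ± 0.457 CPM. None of the 7 was called. Amigo1, an adhesion protein that accompanies Kv2 channels, was at 74.2 CPM among knockouts and 131 CPM among wild types with overlap (log2 fold change -0.81, adjusted p = 0.285).

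**Figure D2:**
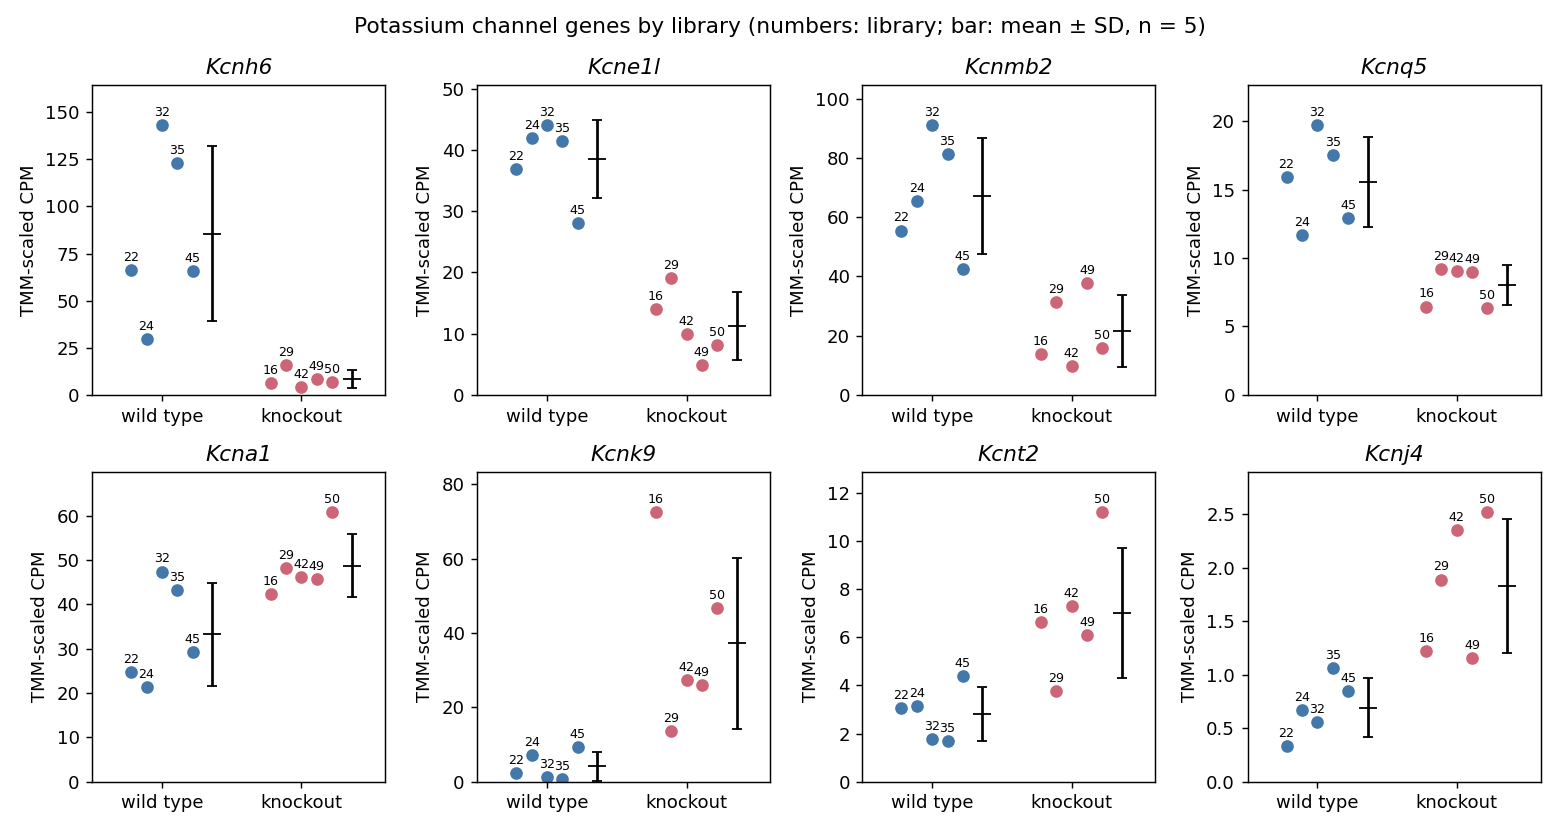
TMM-scaled CPM (y axis) of 8 potassium channel genes in each library, with the library number above each point and the mean ± SD beside each group of 5. Kcnh6, Kcne1l, Kcnmb2 and Kcnq5 are lower, and Kcnk9 and Kcnj4 higher, in all 5 knockout libraries than in any wild-type one, while Kcna1 and Kcnt2 overlap. Of these 8, Kcnh6 and Kcne1l are the called genes.

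The Kv7 genes encode, among others, subunits of the M-channel, which holds neurons below threshold. Kcnq5 was lower in every knockout library, at 6.46, 9.21, 9.03, 8.98 and 6.36 CPM against 15.9, 11.7, 19.7, 17.5 and 12.9 CPM. Its log2 fold change was -0.97 (SE 0.20, adjusted p = 0.0713), which missed the threshold. Its share of Kv7 counts was 1.30 to 2.91% among knockouts and 2.92 to 5.47% among wild types.

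Kcnq3, an M-channel subunit, reached 43.5 CPM in knockout 16 and was at 10.6 to 20.1 CPM elsewhere among knockouts, against 5.64 to 13.8 CPM among wild types (log2 fold change 0.93, adjusted p = 0.375, SE 0.42). Kcnq1 was above every wild-type library at a low level, 1.45 to 2.48 against 0.485 to 1.41 CPM (adjusted p = 0.336). It overlaps the antisense transcript Kcnq1ot1, which was at 56.9 CPM among knockouts and 61.9 CPM among wild types, and the strand setting of the counting is given by none of the sources used here, so reads of the 2 genes cannot be told apart.

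Kv1 subunits, which line the axon and oppose firing near threshold, were not called, but the share taken by Kcna1 did not overlap between the groups. Kcna1 (Kv1.1) was at 42.4, 48.2, 46.2, 45.7 and 60.8 CPM in knockout 16, 29, 42, 49 and 50, and at 24.7, 21.4, 47.4, 43.3 and 29.2 CPM in wild-type 22, 24, 32, 35 and 45. The knockout values were close together, and wild-type 32 and 35 reached into their range (log2 fold change 0.55, SE 0.22, adjusted p = 0.333). Without wild-type 32 and 35 the log2 fold change was 1.01 (adjusted p = 0.110). Kcna2 (Kv1.2) was at 60.9 ± 21.9 CPM among knockouts and 48.3 to 167 CPM among wild types (adjusted p = 0.429). Kcna6 was at 91.0 ± 18.9 and 115 ± 29.2 CPM and Kcna4 at 3.31 ± 0.877 and 5.30 ± 2.04 CPM.

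Of the counts of the 6 Kv1 genes, Kcna1 took 22 to 24.8% among knockouts and 11.7 to 14.6% among wild types. Both ranges were narrow, and wild-type 32 and 35 lay with their own group at 13.0 and 12.7%. Kcna2 took 28.6 ± 6.82 and 36.9 ± 8.51% with overlap. Of 31 shares computed in 9 groups of related subunits after values had been seen, 6 did not overlap between the genotypes: those of Kcnh6, Kcnh2, Kcna1, Kcnq5, Kcnk9 and Kcnk3. No test was made on them. Shares within a group add up to the whole, so these 6 are not separate results. The Kcnk3 share is what Kcnk9 leaves, and a fall of Kcnh6 alone raises the share of Kcnh2. The Kv beta subunits, cytoplasmic partners of Kv1, were not called. Kcnab2 was at 99.4 ± 28.4 and 131 ± 36.9 CPM, and Kcnab1 at 39.5 ± 7.93 and 41.2 ± 11.8 CPM.

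**Figure D3:**
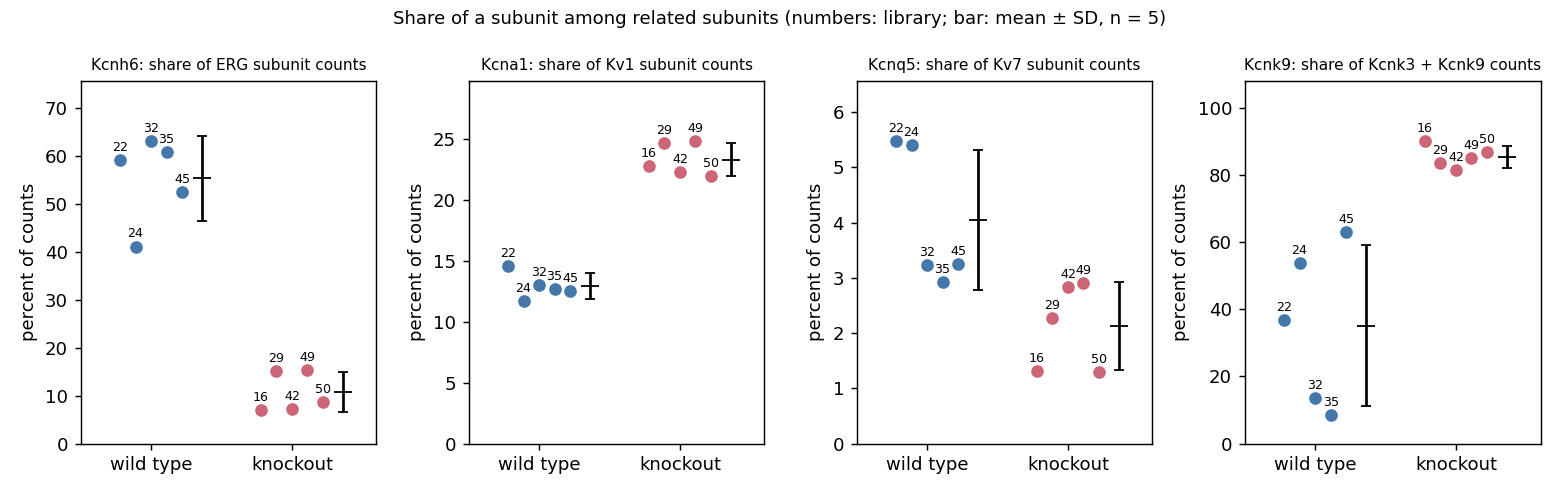
Share of the counts of related subunits (y axis, percent) taken by Kcnh6, Kcna1, Kcnq5 and Kcnk9 in each library, with the library number above each point and the mean ± SD beside each group of 5. Kcna1 lies at 22 to 24.8% among knockouts and 11.7 to 14.6% among wild types, and Kcnh6 at 7.11 to 15.3% and 41.1 to 63.0%.

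Kv3 subunits allow fast repolarisation, and Kv4 subunits carry the A-type current that delays the first spike. None of the 4 Kv3 and 3 Kv4 members was called. Kcnc1 was at 29.4 ± 14.0 CPM among knockouts and 30.4 ± 10.2 CPM among wild types. Kcnd1 was at 32.7 ± 6.4 and 40.7 ± 16.3 CPM and Kcnd3 at 22.7 ± 9.33 and 20.0 ± 4.79 CPM. Kcnd2 reached 16.6 CPM in knockout 16 and was at 2.60 to 8.11 CPM elsewhere among knockouts, against 1.54 to 5.39 CPM among wild types (log2 fold change 1.2, adjusted p = 0.390, SE 0.56).

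The Kv channel interacting proteins are calcium-binding partners of Kv4. Kcnip1 was at 29, 8.73, 5.23, 6.66 and 6.39 CPM in knockout 16, 29, 42, 49 and 50, and at 23.3, 32.4, 37.7, 35.7 and 24.8 CPM among wild types. All knockout libraries except 16 lay below the wild type. The log2 fold change was -1.43 (SE 0.44, adjusted p = 0.216). Without knockout 16 it was -2.19 and Kcnip1 was called (adjusted p = 0.00384). Knockout 16 also had the highest sum of 10 central nervous system markers, 135 CPM against 0.307 to 45.8 CPM in the other libraries, and the highest Kcnd2, Kcnq3, Kcnk9 and Kcnj9 of all libraries. The part of central nervous system tissue in these values was not tested. Kcnip4 was at 5.63 ± 3.60 and 3.46 ± 0.813 CPM and was not called.

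BK channels open with calcium and voltage and shorten the spike, and their beta subunits set inactivation and calcium sensitivity. Kcnma1, the pore subunit, was at 53.0, 24.2, 28.3, 25.8 and 41.9 CPM among knockouts and 18.7 to 56.9 CPM among wild types, with overlap (log2 fold change -0.16, SE 0.32, adjusted p = 0.859). Kcnmb2, the beta subunit that inactivates the channel, was at 13.9, 31.2, 9.82, 37.9 and 15.7 CPM in knockout 16, 29, 42, 49 and 50, and at 55.5, 65.6, 91.0, 81.4 and 42.4 CPM among wild types. The groups did not overlap, and knockout 29 and 49, the libraries with the fewest counts, were nearest the wild type. The log2 fold change was -1.66 (SE 0.36, adjusted p = 0.0807). Kcnmb2 was called in 4 of 20 alternatives, including DESeq2 (adjusted p = 0.00138) and the fit without knockout 29 and 49 (log2 fold change -2.35, adjusted p = 0.0239).

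Kcnmb4, the neuronal beta subunit, was also lower in every knockout library, at 5.19 to 6.85 CPM against 6.94 to 9.70 CPM (adjusted p = 0.332). The antisense genes named after it could share its reads. Kcnmb1 had 0 counts in knockout 49, where the floor of 0.869 CPM lies above 3 of the 5 wild-type values, so a difference there was not detectable at this depth. Its mean was 0.259 CPM among knockouts and 0.722 CPM among wild types. All 3 BK beta members had an unadjusted p under 0.05 and a fold change below 0, as did 6.73% of all genes. None of the 3 was called. Kcnu1, a relative of the BK pore gene best known from sperm, was at 2.64 ± 1.08 and 5.38 ± 1.82 CPM (adjusted p = 0.257).

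The small and intermediate conductance calcium-activated genes, whose channels open with calcium and contribute to afterhyperpolarisation, were not called. Kcnn1 was at 15.6 ± 3.84 CPM among knockouts and 17.2 ± 4.28 CPM among wild types. Neither sodium-activated gene was called. Kcnt2 (Slick) was at 6.64, 3.78, 7.29, 6.08 and 11.2 CPM in knockout 16, 29, 42, 49 and 50, and at 3.07, 3.16, 1.77, 1.67 and 4.37 CPM among wild types. Its groups overlapped only through knockout 29 and wild-type 45 (log2 fold change 1.32, SE 0.35, adjusted p = 0.144). Kcnt1 (Slack) was at 44.3 ± 13.8 and 31.9 ± 17.5 CPM (adjusted p = 0.609).

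Among the two-pore-domain genes, Kcnk9 (TASK-3, an acid-sensitive background channel) had the largest upward fold change of all members. It was at 72.5, 13.53, 27.3, 26.1 and 46.6 CPM in knockout 16, 29, 42, 49 and 50, and at 2.27, 7.10, 1.21, 0.751 and 9.37 CPM in wild-type 22, 24, 32, 35 and 45. Every knockout library exceeded every wild-type library. The log2 fold change was 3.17 (SE 0.70), but the adjusted p of 0.0827 missed the threshold, and 3 of 20 alternatives made the call, DESeq2 (adjusted p = 4.86e-05), limma-voom (adjusted p = 0.0459) and the fit with no filter on low counts (adjusted p = 0.0228). The highest value was in knockout 16, the library with the highest central nervous system sum. That sum was 135, 21.1, 2.13, 18.8 and 24.5 CPM in knockout 16, 29, 42, 49 and 50, and 7.74, 45.8, 0.658, 0.307 and 27.0 CPM in wild-type 22, 24, 32, 35 and 45. Within the wild type, the 2 libraries with the highest sums (24 and 45) also had the highest Kcnk9, and the 2 with the lowest (32 and 35) the lowest. Among knockouts, library 42 had the lowest sum and the third highest Kcnk9. The part of central nervous system tissue in Kcnk9 was not tested. Without knockout 16 the log2 fold change was 2.78 (adjusted p = 0.120). Kcnk3, which encodes the related acid-sensitive channel TASK-1, was at 5.77 ± 2.16 and 6.25 ± 1.67 CPM. Kcnk9 took 81.3 to 89.9% of the summed counts of Kcnk3 and Kcnk9 among knockouts and 8.53 to 62.9% among wild types.

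Two-pore-domain genes of the mechanosensitive TREK and TRAAK group differed in the sign of their fold change, and none was called. Kcnk2 (TREK-1) was at 29.7 ± 15.4 CPM among knockouts and 14.3 ± 5.68 CPM among wild types (log2 fold change 1.07, SE 0.36, adjusted p = 0.258). Kcnk4 (TRAAK) was at 1.73 ± 0.764 and 4.5 ± 2.89 CPM (log2 fold change -1.33, SE 0.47, adjusted p = 0.270). Kcnk10 (TREK-2) was at 21.3 ± 8.09 and 29.8 ± 12.7 CPM (adjusted p = 0.544). The other 5 tested members of the family, Kcnk1, Kcnk5, Kcnk6, Kcnk12 and Kcnk13, had log2 fold changes of 0.20 to 0.63 and were not called. Of these, Kcnk5 was the most abundant, at 14.8 ± 4.41 and 10.2 ± 4.39 CPM. Kcnk18 (TRESK), a channel of adult nociceptors, did not meet the count rule and was at 0.0271 CPM among knockouts and 0.0678 CPM among wild types.

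None of the 10 inward rectifier genes was called. At an unadjusted p under 0.05, 4 were higher and 1 lower (50%, against 13.1% of all genes). Kcnj4 (Kir2.3) was higher in every knockout library, at 1.22, 1.89, 2.35, 1.16 and 2.52 CPM against 0.334, 0.671, 0.554, 1.06 and 0.845 CPM (log2 fold change 1.43, SE 0.36, adjusted p = 0.124). The counts behind it were low, since the knockout 49 value is near that library's floor. The subunits of ATP-sensitive channels, which couple potassium current to metabolism, were both on the higher side. Kcnj8 (Kir6.1), typical of pericytes, was at 10.4 ± 1.92 CPM among knockouts and 6.73 ± 1.24 CPM among wild types (log2 fold change 0.64, SE 0.20, adjusted p = 0.222). Kcnj11 (Kir6.2) was at 6.99 ± 1.44 and 4.27 ± 1.08 CPM (adjusted p = 0.269). The sum of 10 pericyte and vascular smooth muscle markers was 315 to 499 CPM among knockouts and 139.5 to 358 CPM among wild types. All 9 of these markers that were tested had a fold change above 0, from 0.02 to 1.38 on the log2 scale. Of all 18005 genes tested, 8328 had one above 0. An unadjusted p under 0.05 was found for 3 of the 9 (33.3%, against 13.1% of all genes), and none was called. The untested marker, Higd1b, was at no more than 0.280 CPM in any library. The sum of 10 endothelial markers was 443 to 1111 and 234 to 528 CPM. The part of vascular cells in the Kcnj8 values was not tested.

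Kcnj12 (Kir2.2) reached 101 CPM in knockout 29 and was at 16.3 to 24.6 CPM elsewhere among knockouts, against 36.6 to 75.3 CPM among wild types. Without knockout 29 the log2 fold change went from -0.61 to -1.39 and the gene was called (adjusted p = 0.0294). Knockout 29 also had the highest sum of 10 glial markers, 5275 CPM against 1442 to 2699 CPM in the other 9 libraries, and the part of glial RNA in this value was not tested. Kcnj10 (Kir4.1), a glial channel, was low in knockout 29, at 1.02 CPM, with 3.05 ± 1.90 CPM among knockouts and 3.79 ± 1.67 CPM among wild types. Kcnj9 (Kir3.3) reached 2.43 CPM in knockout 16 and was at 0.320 to 0.734 CPM elsewhere among knockouts, against 0.239 to 0.634 CPM. Kcnj15 (Kir4.2) reached 8.98 CPM in knockout 49 and lay between 0.664 and 1.30 CPM for the rest of that group. Knockout 49 also had the highest sum of 8 epithelial markers, 425 CPM against 10.5 to 86.5 CPM, and the part of epithelial RNA in this value was not tested. Kcnj3 (Kir3.1), the partner of Kcnj9 in channels opened by G proteins, was at 13.1 ± 3.41 and 21.8 ± 8.91 CPM (log2 fold change -0.74, SE 0.29, adjusted p = 0.332).

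Many members split the wild-type libraries. Wild-type 32 and 35 were both above the other 3 wild-type libraries for 39 of 79 members (49.4%, against 26.3% of all genes tested) and both below them for 20 (25.3%, against 26.3%). The summed level of all members was 2463 and 2371 CPM in these libraries, 1299.5 to 1675 CPM in the other 3 wild-type libraries and 1261 to 1786 CPM among knockouts. The members above in 32 and 35 included Kcnma1, Kcna2, Kcna6, Kcnh6 and Kcnq5, and those below included Kcnk9, Kcnk2, Kcnt2 and Kcnj8. Of the 39 members that were above, 32 had a fold change below 0, and of the 20 that were below, 16 had one above 0. These 2 libraries make up 2 of the 5 wild-type values in each fold change, so their level by itself moves the fold change that way. The same count was not made over all genes.

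**Figure D4:**
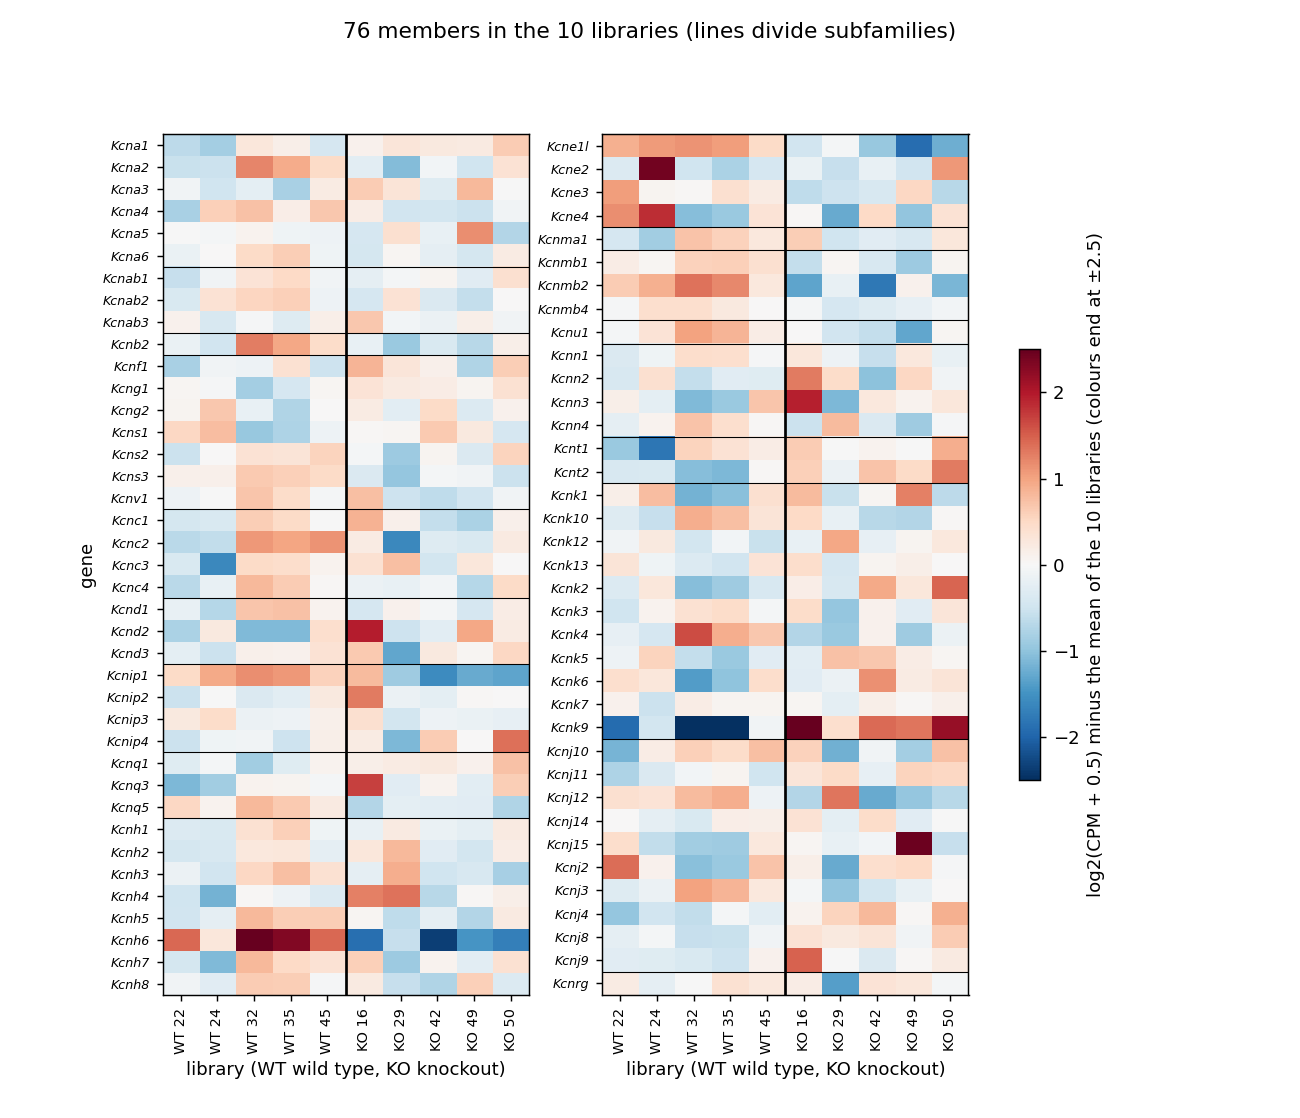
Deviation of log2(CPM + 0.5) from the gene's mean over the 10 libraries (colour, ending at 2.5 in each direction) for 76 members (rows) in the wild-type and knockout libraries (columns). Kcnh6 and Kcnk9 have opposite colours on the 2 sides of the line, and wild-type 32 and 35 share a pattern that differs from the other wild-type libraries.

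Genes whose proteins work with potassium channels were not called. Of 15 partner genes 14 were tested, and of 4 HCN genes (hyperpolarisation-activated relatives that pass sodium and potassium) all were tested. edgeR called 0 of these 18, as did DESeq2 and limma-voom. As edgeR called 0.467% of all genes tested, a count of 0 among 18 is near that share. An unadjusted p under 0.05 was found for 2 partner genes, both lower (14.3% of the tested partners, against 13.1% of all genes). These were Amigo1 and Cntn2, an adhesion molecule that holds Kv1 channels beside the node of Ranvier (609.9 CPM among knockouts and 1195 CPM among wild types, adjusted p = 0.336). Abcc9, the receptor subunit that pairs with Kcnj8, was at 21.2 to 46.1 CPM among knockouts and 12.8 to 35.6 CPM among wild types. Dpp6, a Kv4 partner, was at 107 and 109 CPM, and Hcn3 at 45.4 and 46.4 CPM. The median log2 fold change was 0.08 over the tested partners and 0.15 over the HCN genes.

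The count rule left out 15 protein-coding Kcn genes, among them Kcnj5, Kcnj6, Kcna7, Kcna10, Kcne1, Kcng3, Kcng4 and Kcnv2. Kcnj5, which encodes a G protein-gated inward rectifier, came nearest to it, with 10 or more counts in 4 libraries.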

How the data were processed

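RNA was sequenced from 10 trigeminal ganglion samples. The deposited files hold raw counts per Ensembl gene, 1 file per sample, made by the authors. The tools named by the submitters' processing notes are featureCounts 1.5.0-p1, bcl2fastq 2.20.0.422 and STAR 2.7.10a. The notes list mm10 and GRCm39 as builds, with no role given. The sources used here give no annotation release, strand setting or treatment of multi-mapped reads, so counts of overlapping or near-identical genes are uncertain. Symbols matched 52081 of 55414 IDs, and biotypes and exon lengths came from GENCODE M21.

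Genes were kept with filterByExpr (minimum count 10), scaled with TMM factors and tested on the whole table with edgeR's quasi-likelihood test (edgeR 4.0.16 in R 4.3.3, default dispersion estimate, settled on after its newer estimate had been seen to call the same number of members), with Benjamini-Hochberg adjustment over 18005 genes and a threshold of 0.05. All adjusted p-values are from this test unless DESeq2 (1.42.0) or limma-voom (limma 3.58.1) is named. CPM are means ± SD over 5 libraries. The script was tested on simulated data. Replicates of a group differed beyond sampling noise (chi-square per gene at least 9.88), so none was merged. Counting floors cover counting error only.

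Members, lists and alternatives were chosen with earlier results of these data known. Genes were named by this rule: called members, the 8 smallest p-values in each direction, the highest CPM of each subfamily, and a list of sensory ganglion genes. Other members were named after their values were seen. Results for some genes are not reported here.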

Additional observations from a re-analysis of the deposited data

Results flagged for a closer look

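In each group of 5 libraries, the log2 CPM of 43 members chosen by the naming rule was checked for a library whose gap to its nearest neighbour took up more than 0.71 of the group's range, which chance gives in about 1 group in 20. Of 86 groups, 3 had such a library. Kcnj12 was at 101 CPM in knockout 29, while the rest of its group lay at 16.3 to 24.6 CPM. Kcnrg, a gene named as a potassium channel regulator, was at 0.393 CPM in the same library and between 1.75 and 2.45 CPM in the rest of the group. Kcnj10 was at 1.07 CPM in wild-type 22 and at 3.48 to 5.39 CPM in the other wild-type libraries.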

How the results depend on the processing

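Each result was recomputed under 20 alternatives. Of 43 members chosen by the naming rule, 31 kept the sign of their fold change in all 20. Of 860 values, 776 were on the same side of the threshold, or moved by less than 1 SE where never called, 45 uncalled values moved further, 24 calls were lost, 15 were gained and none reversed; the causes were not tested. DESeq2 called 7 members lower (among them Kcne1l, Kcnh6, Kcnip1, Kcnmb2, Kcnq5 and Kcns3) and 4 higher (Kcnj4, Kcnj8, Kcnk9 and Kcnt2), and 238 genes lower and 399 higher in all, against 67 and 17. Limma-voom called 1 member higher (Kcnk9), and 74 genes lower and 23 higher in all. Without a filter, 1 member (Kcnk9) was higher, with 102 genes lower and 55 higher. The newer dispersion estimate of edgeR gave 37 higher genes, and the fit with sex 6. The general neuronal score as a covariate gave 44 lower and 49 higher. Without wild-type 32 and 35, 0 members were lower, and 19 genes were lower and 0 higher; without knockout 29 and 49, 6 genes were higher. Leaving out 1 library at a time gave 1 to 3 lower members, 27 to 88 lower genes and 2 to 35 higher genes. No paired analysis was possible because no replicate number occurs in both groups. Depth limits members under about 1 CPM, above all in knockout 49, where 25 of 79 had under 10 counts.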
